A study of Mus musculus with 141 samples.

Results

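Ribosomal protein genes encode the structural proteins of the 2 subunits of the cytoplasmic ribosome, and the set described here holds the autosomal protein-coding genes of the mouse build mm10 whose symbols start with Rpl or Rps and a number. Rps6k kinases and paralogues with symbols ending in l were left out. The rule gave 75 of 20665 autosomal protein-coding genes, by symbol alone. Of the 75, 6 symbols do not name a ribosomal protein (Rpl31-ps12, Rpl34-ps1, Rpl37rt, Rps19bp1, Rps23rg1 and Rps27rt), and 39 of the members with a window belong to the large subunit and 28 to the small subunit. DNA methylation had been read by single-cell reduced representation bisulfite sequencing in a mouse glioma line, and every cell of both arms is IdhR132H, that is, it carries R132H in isocitrate dehydrogenase. Cells of the AG-881 arm (67 cells) had been exposed to AG-881 at 1 µM, an inhibitor of mutant IDH also called vorasidenib, for over 2 weeks, and cells of the DMSO arm (74 cells) for the same time with the vehicle alone. Cells positive for calcein AM and negative for TO-PRO-3, that is live cells, were sorted into 96-well plates, and their DNA was cut with MspI. Each arm is 1 culture as far as the labels say, its cells were sequenced in 4 library pools, and each pool belongs to a single arm, which means that effects of a pool and of the arm cannot be told apart. Cells are not replicates of a treatment, so no test was run, and intervals are exact (Clopper-Pearson) 95% intervals that cover counting error only.

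Promoters of ribosomal protein genes are CpG islands of genes that nearly every growing cell transcribes, and such islands are usually free of cytosine methylation. Bisulfite turns unmethylated cytosine into uracil, read as T, while methylated cytosine stays C, so a cytosine that escaped conversion is read as methylated. Sequence that carries no methylation therefore shows how many false methylated calls a library holds at most. Mutant IDH makes 2-hydroxyglutarate, a competitor of the TET enzymes that oxidise methylated cytosine.

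For each gene, the table positions within 500 bp of the gene end with more such positions were taken, which gave 70 windows with 2162 positions. Rps27, Rpl34-ps1, Rps27rt, Rpl31-ps12 and Rpl17 had equal numbers at both ends and no window. A methylation level is the percentage of calls that are methylated, with the calls of all cells of an arm pooled. A gene end counted as measured with at least 50 calls from at least 10 cells in each arm, and 57 members were.

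The promoter sequences below show the CpG-rich starts the windows sit on, with the 250 bases before the annotated start and the first 20 bases after it; capitals mark each CpG. Rps15 and Rpl34 had the most calls among members without a methylated call. Rps7 and Rpl10a carried positions that were methylated again and again in different cells. Rpl22 is the contrast, a start that is CpG-poor and methylated. They come from RefSeq, build GRCm38.p6, at chr10:80292181-80292450 (Rps15, plus strand), chr3:130730379-130730648 (Rpl34, minus strand), chr12:28635934-28636203 (Rps7, minus strand), chr17:28328221-28328490 (Rpl10a, plus strand) and chr4:152324186-152324455 (Rpl22, plus strand).
Rps15: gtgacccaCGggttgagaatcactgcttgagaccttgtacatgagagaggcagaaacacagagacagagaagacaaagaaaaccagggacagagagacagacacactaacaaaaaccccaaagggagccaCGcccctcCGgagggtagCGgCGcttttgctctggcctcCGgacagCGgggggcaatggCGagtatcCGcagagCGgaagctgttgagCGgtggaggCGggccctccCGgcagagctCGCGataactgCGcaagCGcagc
Rpl34: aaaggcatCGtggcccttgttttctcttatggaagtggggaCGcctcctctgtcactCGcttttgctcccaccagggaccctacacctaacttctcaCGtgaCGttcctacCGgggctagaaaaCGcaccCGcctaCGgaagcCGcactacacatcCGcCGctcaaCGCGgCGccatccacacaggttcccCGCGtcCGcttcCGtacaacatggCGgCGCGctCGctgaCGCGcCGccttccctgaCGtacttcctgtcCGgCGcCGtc
Rps7: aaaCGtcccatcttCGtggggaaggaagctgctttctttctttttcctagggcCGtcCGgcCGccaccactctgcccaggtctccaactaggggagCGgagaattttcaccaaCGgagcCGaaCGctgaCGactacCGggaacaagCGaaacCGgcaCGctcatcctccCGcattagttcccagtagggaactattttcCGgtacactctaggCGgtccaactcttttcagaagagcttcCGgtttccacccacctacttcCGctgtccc
Rpl10a: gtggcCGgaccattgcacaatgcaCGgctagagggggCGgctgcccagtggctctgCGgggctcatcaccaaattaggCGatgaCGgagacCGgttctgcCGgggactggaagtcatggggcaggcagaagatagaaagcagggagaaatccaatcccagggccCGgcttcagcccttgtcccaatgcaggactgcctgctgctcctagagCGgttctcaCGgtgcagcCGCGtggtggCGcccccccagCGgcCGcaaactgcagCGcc
Rpl22: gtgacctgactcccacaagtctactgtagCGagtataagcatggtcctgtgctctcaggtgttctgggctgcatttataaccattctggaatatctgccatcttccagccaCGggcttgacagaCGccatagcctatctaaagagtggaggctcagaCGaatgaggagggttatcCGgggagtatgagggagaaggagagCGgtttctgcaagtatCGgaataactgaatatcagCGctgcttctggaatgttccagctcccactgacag
The stretch of Rps15 holds 17 CpGs, that of Rpl34 holds 30, and those of Rps7 and Rpl10a hold 19 and 17. The Rpl22 stretch holds 8.

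The RefSeq promoter table (250 bases before to 50 after the start) had an entry for 55 members. Their promoters had a median of 21 CpGs, with a range of 4 to 35, against a median of 14 over the 16457 autosomal protein-coding genes with an entry, and the median ratio of observed to expected CpGs was 0.870 against 0.599. CCGG, the MspI site, which reads the same on both strands and always contains a CpG, was found in 90.9% of the members' promoters and in 63.6% of all. A C at the annotated start followed by 4 pyrimidines, the pattern of the terminal oligopyrimidine tract of ribosomal protein mRNAs, was searched on the gene's strand only and was found in 12 of 55 members (21.8%) and in 2.19% of all entries. Of the 52 windows with an entry, 46 were centred within 500 bp of a listed start and 6 were not.

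As a whole the windows were nearly free of methylated calls, and the arms differed by less than counting error. AG-881 cells had 167 methylated of 14276 calls (1.17%, interval 1.00 to 1.36), and DMSO cells had 142 of 13191 (1.08%, interval 0.907 to 1.27). The difference was 0.0933 points, with an interval of -0.162 to 0.348. The label of an unmethylated floor held for most windows but not for all. Windows with few table positions carried a large part of the methylated calls: the 20 windows of 1 to 19 positions were at 10.6% in AG-881 cells and 8.13% in DMSO cells. The 50 windows of 20 or more positions, all measured, were at 0.574% in AG-881 cells (77 of 13425 calls, interval 0.453 to 0.716) and 0.599% in DMSO cells (74 of 12355 calls, interval 0.471 to 0.751), a difference of -0.0254 points (interval -0.220 to 0.167). The bound of 20 positions was chosen after the levels were seen, although it uses no level. Rpl36 and Rpl13a with 18 positions and Rpl18 with 19 lie just outside it, and Rps19bp1 with 20 and Rpl7 and Rps3 with 21 just inside.

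Of the 57 measured members, 13 (22.8%) had a level of at least 1% in either arm, whereas 50.2% of all 9347 measured autosomal gene ends did. At least 5% was reached by 2 members, Rpl36 and Rpl12, and by 27% of all measured gene ends. No methylated call in any cell was found at 24 members (42.1%), against 17.2% of all. The median member was at 0.177% in AG-881 cells and 0% in DMSO cells, against medians over all measured gene ends of 0.585% in AG-881 cells and 0.769% in DMSO cells. Among gene ends with 20 to 39 table positions, 18.5% of 27 members and 54.6% of 3556 others reached 1%. With 40 to 59 positions the shares were 21.1% of 19 members and 44.9% of 2376 others. Pooled over windows of 20 or more positions, the other gene ends were at 5.04% in AG-881 cells and 5.75% in DMSO cells. A further 7 autosomal ribosomal protein genes fall outside the naming rule, and all were measured. They were at 0.602% in AG-881 cells (interval 0.289 to 1.10) and 0.827% in DMSO cells (interval 0.441 to 1.41). Of these 7, 3 (42.9%) reached 1% in either arm, 0 reached 5%, and 0 lacked a methylated call. The low shares of the members were thus not seen in this short list, apart from that at 5%.

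**Figure D1:**
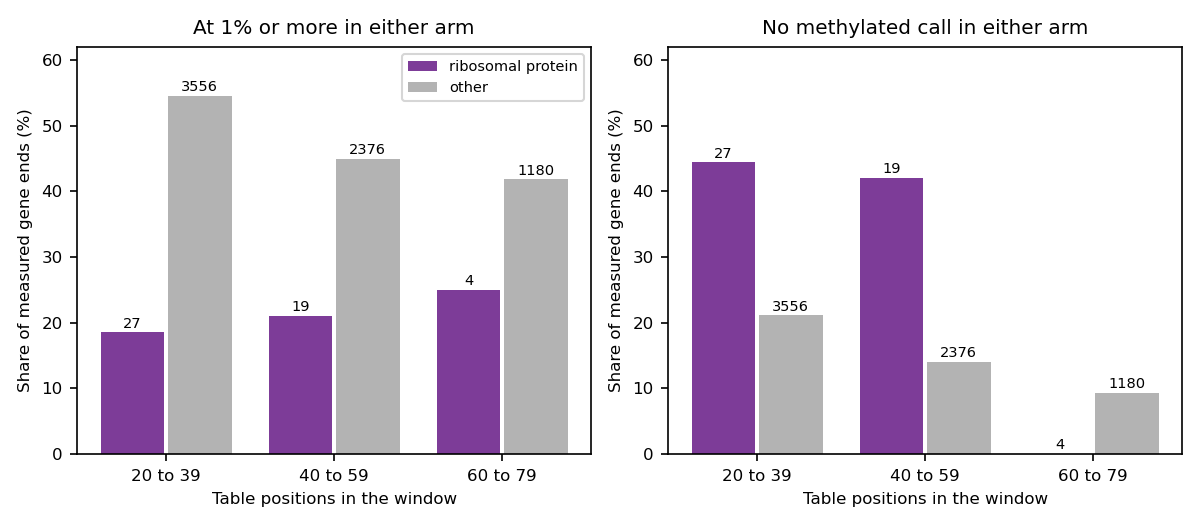
Share of measured gene ends, in percent, that reached a level of 1% in either arm (left panel) or had no methylated call in either arm (right panel), by the number of table positions in the window; purple bars are ribosomal protein gene ends, grey bars all other autosomal gene ends, and the number over a bar is the number of gene ends. In the 27 and 19 members of the first and second classes, fewer reached 1% and more had no methylated call than among the others; the third class holds only 4 members, and none of these lacked a methylated call.

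Differences between arms of at least 1 point were few. AG-881 cells were higher at 5 measured members (8.77%, against 12.1% of all measured gene ends) and lower at 4 (7.02%, against 25.2% of all). The 5 were Rpl36, Rpl5, Rps7, Rps24 and Rpl18, and the 4 were Rpl12, Rpl10a, Rpl19 and Rpl6. For Rps24, Rpl18 and Rpl19 the call rested on 1 methylated call in 1 arm, and for Rpl6 on 2 in DMSO cells. A fall of 1 point needs a DMSO level of at least 1%. Among measured members only Rpl36, Rpl12, Rpl10a, Rps13, Rpl27, Rpl19, Rps7, Rpl5 and Rpl6 had such a level. The small share of lower members therefore partly restates their low level. The interval of the difference left out 0 at Rpl36, Rpl12 and Rpl10a, among the 57 looked at.

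**Figure D2:**
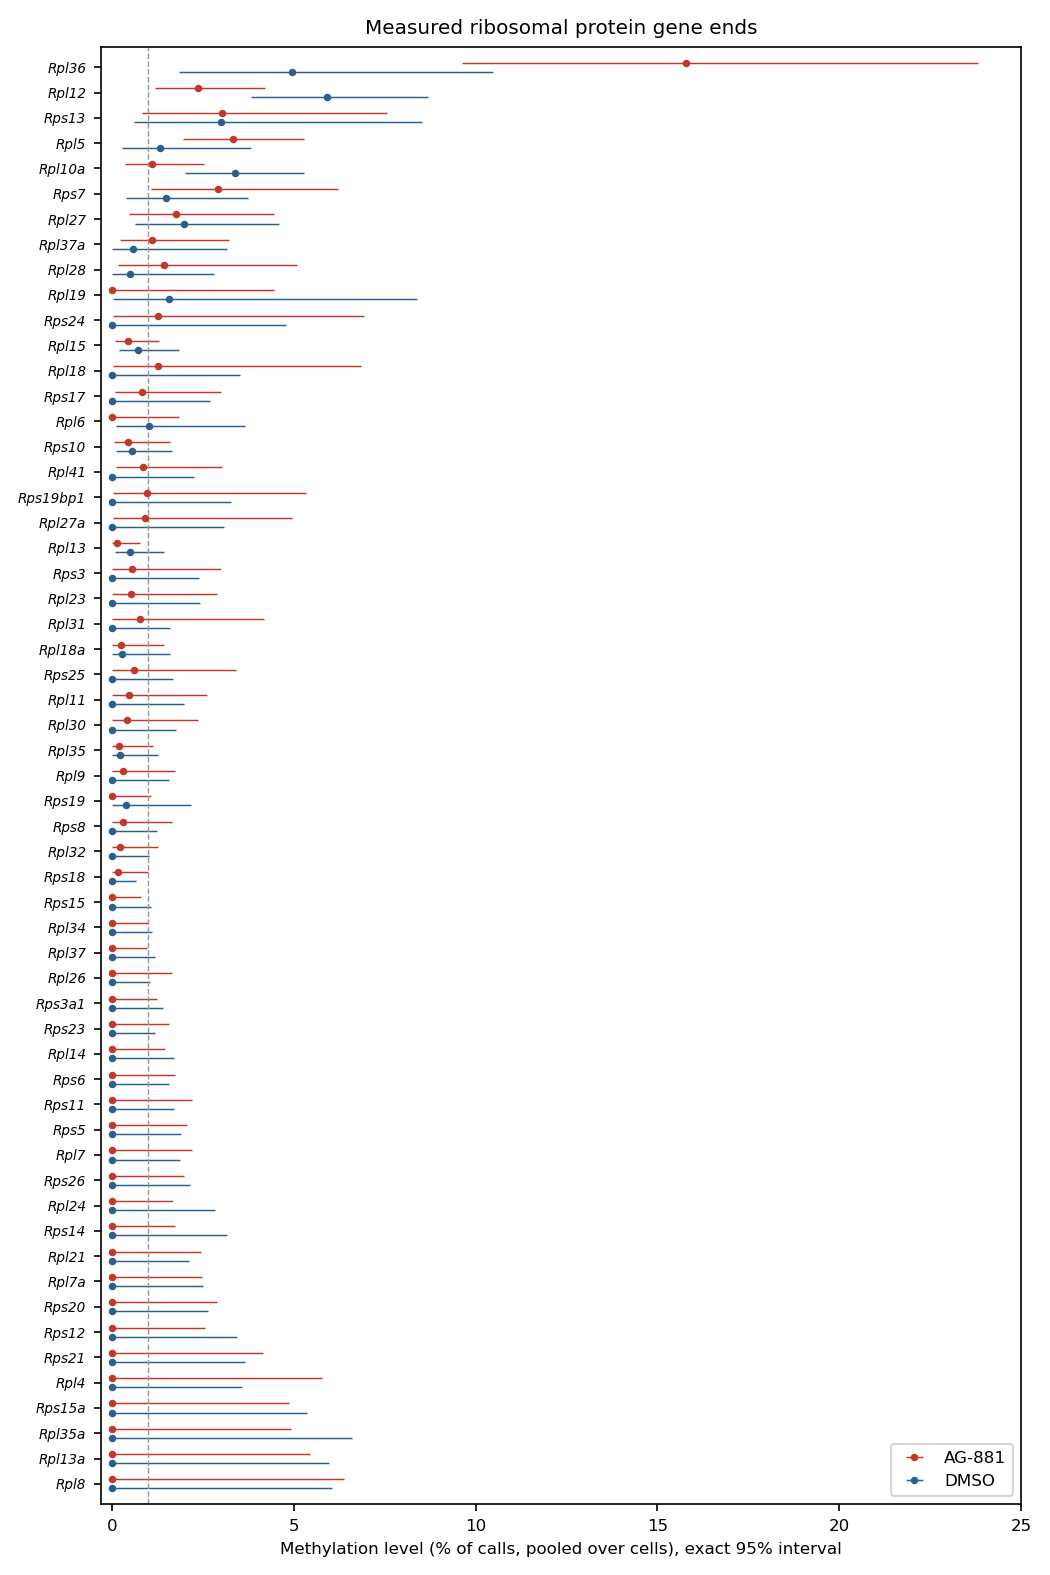
Methylation level, in percent of calls pooled over the cells of an arm, at each of the 57 measured ribosomal protein gene ends, ordered by the level over both arms; points are AG-881 (red, upper) and DMSO (blue, lower), bars are exact 95% intervals, and the dashed line marks 1%. The 24 members at the bottom have no methylated call in either arm, and Rpl36 stands alone at the top.

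Large-subunit members were at 1.40% in AG-881 cells and 1.49% in DMSO cells, over 39 windows. The 28 small-subunit windows were at 0.444% in AG-881 cells and 0.244% in DMSO cells. The large-subunit levels rested largely on few members. Of 125 methylated calls in AG-881 cells, Rpl22, Rpl38, Rpl36, Rpl12, Rpl5 and Rpl10a had 29, 19, 18, 11, 17 and 5. Of 121 in DMSO cells, the same members had 18, 30, 6, 24, 3 and 18. The median measured large-subunit member was at 0.245% in AG-881 cells and 0% in DMSO cells. For the small subunit the median was 0% in both arms. Among small-subunit members, Rps15, a protein of the 40S head, had no methylated call among 462 calls in AG-881 cells and 341 in DMSO cells, which allows a level of up to 0.374%. Rps3a1 had none among 297 calls in AG-881 cells and 260 in DMSO cells (up to 0.539%). Rps6, the substrate of the S6 kinases, had none among 212 calls in AG-881 cells and 234 in DMSO cells (up to 0.673%). These small-subunit starts were at the floor in both arms. Of the large-subunit members, Rpl34 had no methylated call among 366 calls in AG-881 cells and 331 in DMSO cells (up to 0.430%). Rpl37 had none among 375 calls in AG-881 cells and 312 in DMSO cells (up to 0.437%). Rpl26 had none among 220 calls in AG-881 cells and 353 in DMSO cells (up to 0.524%). Rpl13a, known in human cells for a role in silencing inflammatory mRNAs, had none among 66 calls in AG-881 cells and 60 in DMSO cells, which allows up to 2.38% and so says less. Rps27a, which encodes a fusion of ubiquitin and a ribosomal protein, was not measured, and none of its 30 calls in AG-881 cells and 21 in DMSO cells was methylated. The deepest member was Rpl13, with 1 methylated of 714 calls in AG-881 cells (0.140%) and 3 of 603 in DMSO cells (0.498%).

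A list of genes mutated in human Diamond-Blackfan anaemia, a failure of red cell production, held 17 members with a window and Rps27, which had none. Other members were not sorted by this disease. The 17 were at 0.941% in AG-881 cells and 0.547% in DMSO cells, a difference of 0.394 points with an interval of -0.000977 to 0.796. AG-881 pool 4 held 21 of their 39 methylated calls in AG-881 cells, and without that pool the level was 0.640% in AG-881 cells and 0.547% in DMSO cells (difference 0.0932 points, interval -0.295 to 0.517). Of the 15 measured among them, 4 were higher by at least 1 point with AG-881 and none was lower, against 12.1% of all measured gene ends higher and 25.2% lower. The 4 were Rpl5, Rps7, Rps24 and Rpl18, and at Rps24 and Rpl18 the call rested on 1 methylated call each. Only Rpl5, Rps7 and Rpl27 had a DMSO level of at least 1%, so none of the others could be lower by 1 point. Rps19, the gene most often mutated in that disease, had 0 methylated of 342 calls in AG-881 cells and 1 of 253 in DMSO cells (0.395%). A short list of 4 proteins that bind Mdm2, the ubiquitin ligase of p53, held Rpl5, Rpl11, Rpl23 and Rps7. It is not a full list of such proteins, and other members were not sorted by Mdm2 binding. Rpl5, Rpl11 and Rps7 are also in the anaemia list, so the lists share methylated calls. Together the 4 listed genes were at 2.24% in AG-881 cells and 0.842% in DMSO cells. Rpl11 had 1 methylated of 210 calls in AG-881 cells and 0 of 184 in DMSO cells, and Rpl23 had 1 of 190 in AG-881 cells and 0 of 151 in DMSO cells, so the difference lay at Rpl5 and Rps7. AG-881 pool 4 held 17 of the 25 methylated calls of these 4 genes in AG-881 cells, and without that pool the level was 1.13% in AG-881 cells and 0.842% in DMSO cells.

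Methylated calls lay mostly at the edges of the windows, largely at few members, and were rare at the gene end itself. In the windows of 20 or more positions, 2.62% of calls were methylated from 500 to 301 bp outside the gene and 1.64% from 300 to 151 bp outside, with both arms pooled. The share was 0.408% in the 150 bp just outside, 0.177% in the first 150 bp inside, and 0.170% from 150 to 299 bp inside. It was 0.755% from 300 to 500 bp inside. The outer shares rested on 36 and 38 methylated calls outside the gene and 39 inside. Rpl12 alone had 29 methylated calls from 359 to 388 bp inside. Outside, Rpl10a had 21 from 427 to 150 bp, Rpl5 had 20 from 467 to 281 bp, and Rpl27 had 9 from 473 to 419 bp. The profile is thus not that of every member. Within 150 bp of the end, 14 of 5054 calls were methylated in AG-881 cells (0.277%, interval 0.152 to 0.464) and 13 of 4861 in DMSO cells (0.267%, interval 0.142 to 0.457), and 37 of the 50 members had no methylated call there.

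**Figure D3:**
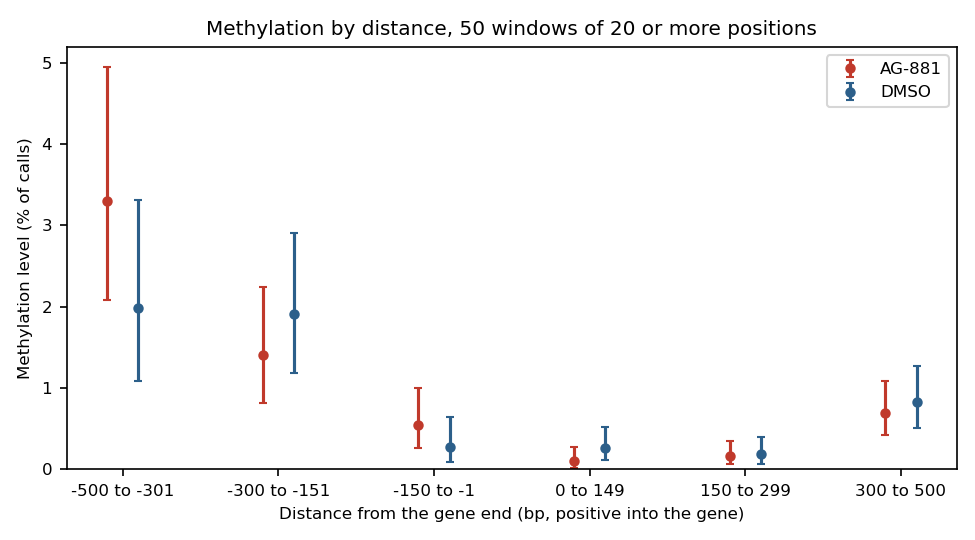
Methylation level, in percent of calls with exact 95% intervals, by distance from the gene end in bp (positive into the gene), over the 50 windows of 20 or more positions, AG-881 (red, left) beside DMSO (blue, right). Both arms are lowest from 150 bp outside to 299 bp inside the gene, where no level exceeds 0.541%. The higher levels at the edges rest largely on few members, among them Rpl5, Rpl10a, Rpl27 and Rpl12.

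Most methylated calls recurred at few positions, and the stretches of such positions described here were chosen after the calls were seen. Of 1966 positions in these windows, 1884 were never methylated, 57 were methylated in 1 cell, 6 in 2 cells and 19 in 3 or more cells. Those 19 positions, at 8 members, held 82 of the 151 methylated calls. They were at 39.2% in AG-881 cells (40 of 102 calls) and 42% in DMSO cells (42 of 100 calls), levels that their choice fixes in part. At the other positions the level was 0.278% in AG-881 cells (interval 0.196 to 0.383) and 0.261% in DMSO cells (interval 0.179 to 0.368).

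Rpl12, a large-subunit protein at the base of the stalk where translation factors bind, had a stretch methylated nearly all or nothing within a cell. Its window at the gene end on chr2, position 32961712, is shared with the end of Lrsam1 and was at 2.38% in AG-881 cells and 5.93% in DMSO cells (difference -3.54 points, interval -6.55 to -0.759). From 359 to 388 bp inside the gene, 5 positions were called together in 18 cells. All 5 were methylated in 5 cells, 4 of 5 in 1 cell, and none in 12 cells. Of the 9 AG-881 cells called there, 2 had methylated calls, and of the 9 DMSO cells 4 did. Outside the stretch the level was 0.240% in AG-881 cells and 1.39% in DMSO cells. Without DMSO pool 5, which held 13 of the 24 methylated calls in DMSO cells, the difference was -1.59 points, with an interval of -4.84 to 1.11. Without AG-881 pool 2 it was -2.80 points, with an interval of -5.97 to 0.381.

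At Rpl5 the methylated calls lay upstream of the promoter, and the arms differed in how many cells had been read there. The level was 3.33% in AG-881 cells (17 of 510 calls) and 1.33% in DMSO cells (3 of 226 calls), a difference of 2.01 points with an interval of -0.852 to 4.22. From 467 to 281 bp outside the gene, 17 of 20 calls were methylated in AG-881 cells and 3 of 3 in DMSO cells. In the rest of the window none of 490 calls in AG-881 cells and none of 223 in DMSO cells was methylated. The upstream stretch took 3.92% of the window's calls in AG-881 cells and 1.33% in DMSO cells, and had been read in 7 AG-881 cells and 3 DMSO cells. Without AG-881 pool 4, which held 12 of the 17 methylated calls in AG-881 cells, the difference was 0.240 points.

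Rpl10a, a large-subunit protein of the L1 stalk at the ribosome's exit site, had the same layout with the arms in the opposite order. Its level was 1.10% in AG-881 cells (5 of 455 calls) and 3.38% in DMSO cells (18 of 533 calls), a difference of -2.28 points with an interval of -4.32 to -0.290. Without DMSO pool 7, which held 7 of the 18 methylated calls in DMSO cells, the difference was -1.53 points, with an interval of -3.68 to 0.424. The interval also took in 0 without AG-881 pool 1, AG-881 pool 4 or DMSO pool 6. From 427 to 150 bp outside the gene, 5 of 13 calls were methylated in AG-881 cells (38.5%) and 16 of 35 in DMSO cells (45.7%). This stretch took 2.86% of the window's calls in AG-881 cells and 6.57% in DMSO cells. The position 427 bp outside was methylated in all 5 cells called there, while those at 226 to 166 bp outside, within the printed promoter, were methylated in 2 or 3 of 6 to 9 cells each.

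Rps7, a small-subunit protein, was at 2.91% in AG-881 cells (6 of 206 calls) and 1.48% in DMSO cells (4 of 270 calls), with an interval of the difference of -1.49 to 4.92. AG-881 pool 4 held 4 of the 6 methylated calls in AG-881 cells, and without it the level was 1.52% in AG-881 cells (2 of 132 calls) and 1.48% in DMSO cells. Leaving out AG-881 pool 3 gave a difference of 3.03 points, and leaving out DMSO pool 7 gave 2.37 points. At 153 bp outside the gene, again inside the printed promoter, 3 of 6 AG-881 cells and 2 of 4 DMSO cells were methylated. The neighbouring positions were mostly unmethylated in the same cells: from 153 to 120 bp outside, 5 of 30 calls were methylated in AG-881 cells and 3 of 20 in DMSO cells. Rpl27 and Rps13 were the other recurrent members with several positions. Rpl27 was at 1.76% in AG-881 cells and 1.99% in DMSO cells, and all its 9 methylated calls lay from 473 to 419 bp outside the gene. Rps13 was at 3.03% in AG-881 cells and 3.0% in DMSO cells, and 5 of its 7 methylated calls lay from 464 to 355 bp outside. Rpl37a, at 1.12% in AG-881 cells and 0.575% in DMSO cells, had 3 of its 4 methylated calls at 1 position 282 bp outside. The last of the 8 members was Rpl13, with 3 of its 4 methylated calls at 1 position 98 bp outside. That position was methylated in 1 of 15 AG-881 cells and 2 of 17 DMSO cells.

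**Figure D4:**
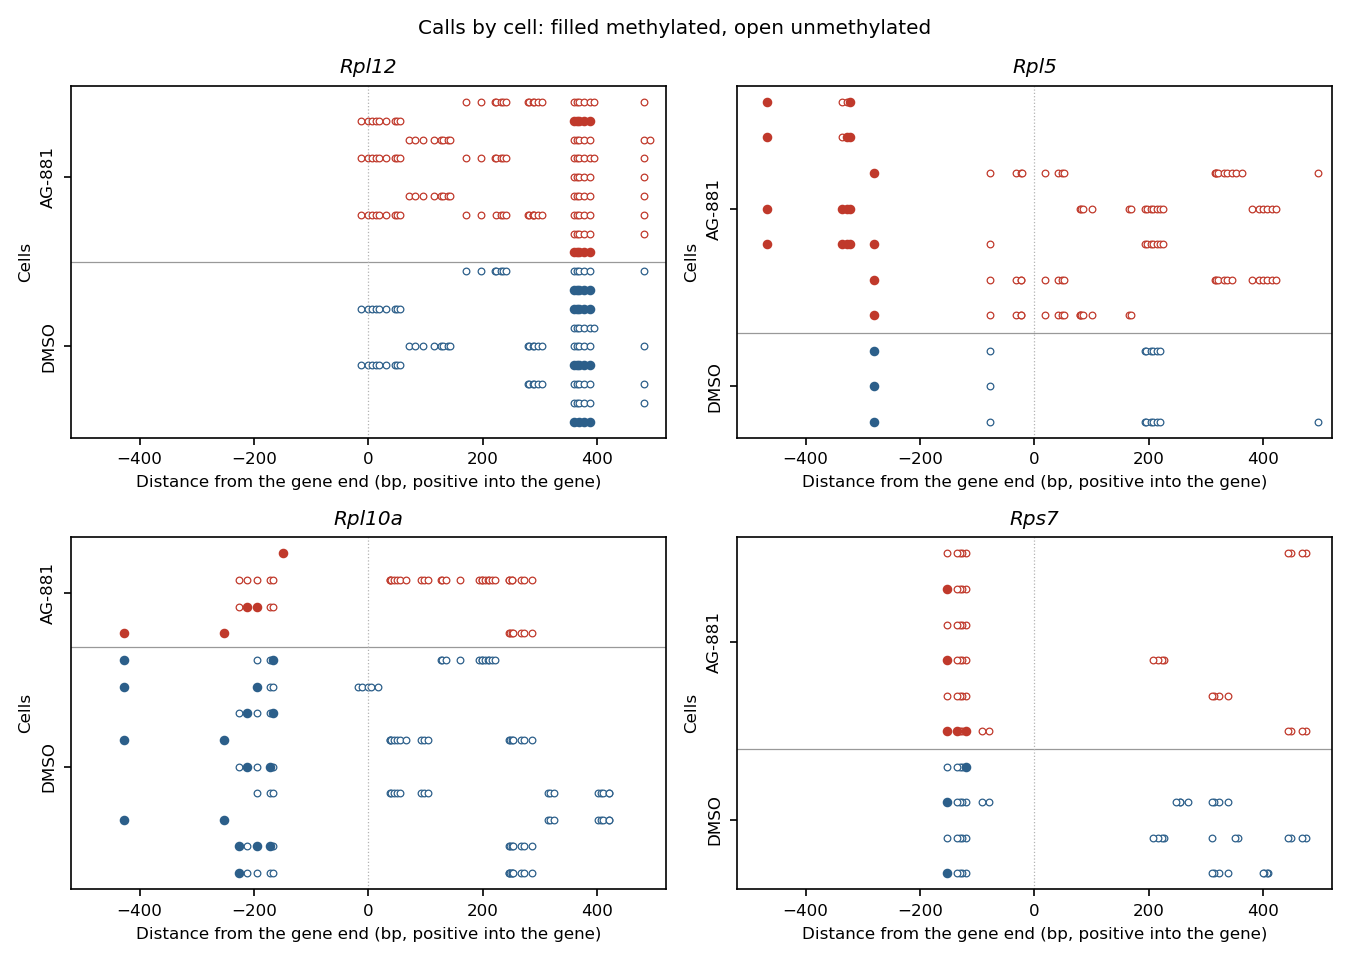
Calls of single cells by distance from the gene end (bp, positive into the gene) at Rpl12, Rpl5, Rpl10a and Rps7, for every cell with a call in the recurrent stretch; a row is a cell, AG-881 cells (red) above DMSO cells (blue), and filled points are methylated calls, open points unmethylated ones. Where these cells have calls nearer the gene end, those calls are unmethylated, whichever call the cell has in the stretch. At Rpl12 the 5 positions from 359 to 388 bp go together within every cell but 1.

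Rpl36, a large-subunit protein, had the highest level of any measured member and the largest difference between arms. AG-881 cells were at 15.8% (18 of 114 calls) and DMSO cells at 4.96% (6 of 121 calls), a difference of 10.8 points with an interval of 2.56 to 19.4. Its window has 18 positions, is shared with the end of Micos13, and has no entry in the promoter table. From 387 to 394 bp inside the gene, 17 of 18 calls were methylated in AG-881 cells and 3 of 3 in DMSO cells. In the rest of the window 1 of 96 calls was methylated in AG-881 cells and 3 of 118 in DMSO cells. That stretch had been read in 6 AG-881 cells and 1 DMSO cell, so it took 15.8% of the window's calls in AG-881 cells and 2.48% in DMSO cells. AG-881 pool 1 held 15 of the 18 methylated calls in AG-881 cells. Without it the level was 4% in AG-881 cells and 4.96% in DMSO cells, a difference of -0.959 points. Leaving out DMSO pool 7 gave 8.10 points, with an interval of -2.24 to 17.4.

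The most methylated windows were not measured, and several were not centred on a CpG-rich start. At Rpl22, whose protein binds small RNAs of a herpesvirus in human cells, 29 of 32 calls were methylated in AG-881 cells (90.6%) and 18 of 18 in DMSO cells, and every one of the 22 cells with a call had a methylated one. This window lies on a start at chr4, position 152324436, whose sequence is printed above. At the other listed start, 1290 bp away, 0 of 64 calls were methylated in AG-881 cells and 0 of 50 in DMSO cells, which allows a level of up to 2.63%. At Rpl38, a protein known in mice for the translation of Hox mRNAs, the window was at 40.4% in AG-881 cells (19 of 47 calls) and 52.6% in DMSO cells (30 of 57 calls). At its listed start, 762 bp away, the level was 2.87% in AG-881 cells (12 of 418 calls) and 0.345% in DMSO cells (1 of 290 calls). This window overlaps the one at the gene end, so methylated calls from 370 to 489 bp inside the gene are counted in both. Such shared calls made up nearly all methylated calls at the listed start in AG-881 cells and the only one in DMSO cells. Of the shared positions, that at 393 bp was methylated in 6 of 6 AG-881 cells and 1 of 2 DMSO cells. The position at 374 bp was methylated in 3 of 6 AG-881 cells and 0 of 2 DMSO cells. That at 370 bp was methylated in 1 of 6 AG-881 cells and 0 of 2 DMSO cells. At 489 bp, called in AG-881 cells only, 1 of 2 cells was methylated. Rps2, read at 1 position, had 4 methylated of 6 calls in AG-881 cells and 1 of 2 in DMSO cells, while at its listed start, 1864 bp away, it had 0 of 240 in AG-881 cells and 1 of 227 in DMSO cells. At the listed start of Rpl19 with more table positions, 4921 bp away, 0 of 206 calls were methylated in AG-881 cells and 0 of 340 in DMSO cells, which allows a level of up to 0.549%.

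Of the symbols that do not name a ribosomal protein, 3 had a window. Rpl37rt had 13 methylated of 17 calls in AG-881 cells and 3 of 3 in DMSO cells. Rps23rg1 had 5 of 20 calls methylated in AG-881 cells (25%) and 6 of 21 in DMSO cells (28.6%). Rps19bp1, the only measured one, was at 0.980% in AG-881 cells and 0% in DMSO cells. The remaining windows that were not measured were those of Rpl29 (1 of 4 calls methylated in AG-881 cells and 0 of 4 in DMSO cells), Rpl3 (0 of 20 in AG-881 cells and 3 of 41 in DMSO cells), and Rps9, Rps16, Rps28, Rps29 and Rpl23a, which had no methylated call.

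Single cells had a median of 206 calls in the 70 windows with AG-881 (21 to 530) and 168.5 with DMSO (25 to 384). In the windows of 20 or more positions, 36 of 67 AG-881 cells and 42 of 74 DMSO cells had no methylated call, and the median cell of both arms was at 0%. The highest AG-881 cell was at 4.95% (9 of 182 calls), with 4 of its methylated calls at Rpl5, 2 at Rpl27 and 1 each at Rpl28, Rpl41 and Rps24. The highest DMSO cell was at 10.3% (4 of 39 calls), all at Rpl27. The next DMSO cells, at 7.22% and 5.15%, each had 5 methylated calls in the Rpl12 stretch. A cell and a member with calls met 3058 times in these windows, and in 92 of these the cell had a methylated call there.

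Whether a cell's level in these windows went with its level elsewhere was described by a correlation over cells, whose points share pools and depth. Against the level over the rest of the autosomes, which ranged from 15.7% to 38.5% in AG-881 cells and from 20.2% to 37.9% in DMSO cells, Pearson's r was 0.201 and Spearman's rho 0.236 over 141 cells. Within arms r was 0.104 over 67 AG-881 cells and 0.276 over 74 DMSO cells. The cell with the lowest level elsewhere, an AG-881 cell of pool 2 at 15.7%, had 0 methylated of 116 calls in the windows. These counts per cell are sparse, and the weak correlations are given as values.

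Over all 70 windows, AG-881 pools 1 to 4 were at 1.49%, 0.595%, 1.33% and 1.26%. DMSO pools 5 to 8 were at 1.40%, 1.09%, 0.941% and 0.847%. Within the AG-881 arm, the intervals of pool 1 (1.10 to 1.97) and pool 2 (0.364 to 0.918) did not overlap. In the windows of 20 or more positions, AG-881 pools 1 to 4 were at 0.463%, 0.407%, 0.529% and 0.813%, and DMSO pools 5 to 8 were at 0.677%, 0.461%, 0.703% and 0.525%. The ranges overlapped. Over the rest of the autosomes the same pools were at 30.0%, 31.2%, 35.9% and 32.1% with AG-881 and at 34.5%, 32.4%, 33.5% and 33% with DMSO, so that pool 3, the highest elsewhere, was in the middle in these windows.

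Isolated methylated calls, with no other methylated cell at the position and no methylated call within 100 bp in the same cell, are the rare calls that neither recur nor have company. There were 40 of them among 25780 calls (0.155%, interval 0.111 to 0.211), in 27 members and 32 cells. Of these cells, 25 had 1 isolated call, 6 had 2 and 1 had 3. AG-881 cells had 29 of 13425 calls (0.216%, interval 0.145 to 0.310) and DMSO cells 11 of 12355 (0.0890%, interval 0.0445 to 0.159). By pool the shares were 0.165%, 0.156%, 0.364% and 0.191% for AG-881 and 0.0282%, 0.126%, 0.134% and 0.0874% for DMSO. Every AG-881 pool was above every DMSO pool; the intervals of AG-881 pool 3 and DMSO pool 5 did not overlap, and those of all other pairs of an AG-881 and a DMSO pool did. Without its highest pool, an arm was at 0.173% with AG-881 and 0.0747% with DMSO. At the other gene ends with 20 or more positions the arms were in the opposite order, with 0.278% isolated calls in AG-881 cells and 0.333% in DMSO cells. The definition of an isolated call was chosen after the calls were seen, and the gap between arms depended on it. At all positions outside the 19 recurrent ones, with shared and neighbouring calls kept, the arms lay closer together. There 37 of 13323 calls were methylated in AG-881 cells (0.278%) and 32 of 12255 in DMSO cells (0.261%).

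**Figure D5:**
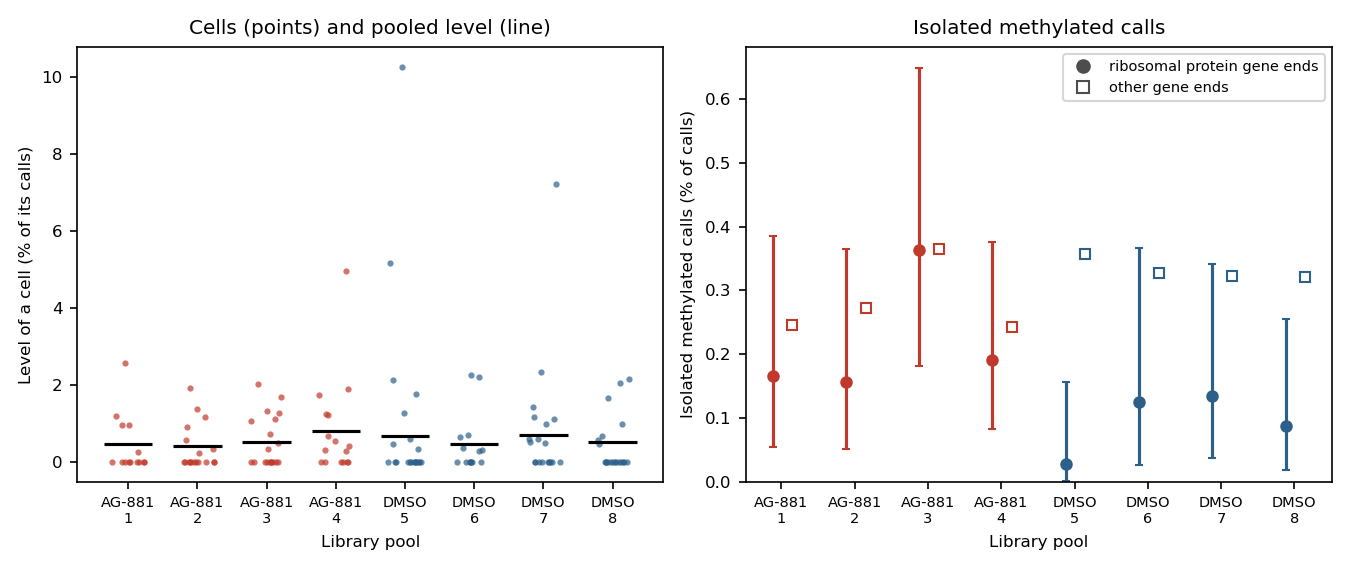
Left, the level of each cell (points, percent of its calls) and of each pool (black lines) in the 50 windows of 20 or more positions; right, isolated methylated calls in percent of calls, as filled circles with exact 95% intervals at ribosomal protein gene ends and as open squares at other gene ends of 20 or more positions, by library pool, AG-881 pools 1 to 4 (red) left of DMSO pools 5 to 8 (blue). Pool levels overlap between arms, while isolated calls at ribosomal protein gene ends run from 0.156% to 0.364% in AG-881 pools and from 0.0282% to 0.134% in DMSO pools.

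Mitochondrial DNA gave a second view of conversion that does not rest on promoters. At 42 mitochondrial positions, 0 of 604 calls were methylated in AG-881 cells (interval up to 0.609%) and 0 of 607 in DMSO cells (interval up to 0.606%), over all 141 cells. At this depth a share as low as that of isolated calls was not detectable there. Mitochondrial values of 0.5 were left out as well, and the number of reads behind a call is not known. Calls there may therefore not compare with calls at the windows. Values of 0.5, which are neither methylated nor unmethylated, made up 0.0509% of the members' values and 0.412% of the table.

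Levels at paralogues with symbols ending in l differed widely. Rpl22l1 was at 0.546% in AG-881 cells and 0.633% in DMSO cells, and Rpl36al at 0.216% in AG-881 cells and 0.665% in DMSO cells. Rpl7l1 had 0 methylated of 58 calls in AG-881 cells and 2 of 57 in DMSO cells (3.51%). Rpl3l, not measured, had 4 of 23 in AG-881 cells (17.4%) and 7 of 26 in DMSO cells (26.9%). Rpl39l, a paralogue made mainly in testis, was at 95.3% in AG-881 cells (61 of 64 calls) and 90.6% in DMSO cells (58 of 64 calls). Rpl10l, an autosomal retrogene that stands in for X-linked Rpl10 during meiosis, had all of its 21 calls in AG-881 cells and 12 calls in DMSO cells methylated, from 3 cells each, and was not measured.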

How the data were processed

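Methylated fractions (0, 0.5 or 1 per cytosine position and cell) were used as the authors deposited them, with the build mm10 named per the submitters' processing notes; which aligner, caller and number of reads lie behind a call is not given in the sources used here. Columns name the arm and library pool, not the well, and were assigned to arms by name. Of 1416034 positions, those on chromosomes 1 to 19 were used for the members. Values of 0.5 were left out. Gene ends, chosen without strand, came from RefSeq GRCm38.p6. Calls were pooled over cells (Python 3.11.15, pandas 2.3.3, scipy 1.17.1). Intervals treat calls as independent, and those of differences combine both arms' exact intervals. A limit for 0 methylated calls is 3 calls of the total. Scripts were tested on simulated data. The members and lists were chosen with earlier results of these data known. Genes named are the 8 highest measured members, the 5 largest increases and decreases, the 5 with most calls and none methylated, and Rpl5, Rpl11, Rpl23, Rps7, Rps6, Rps19, Rpl13a and Rps27a; others were chosen after their values were seen. A recurrent stretch is a run of positions methylated in at least 10% of their cells, with gaps of up to 200 bp, that holds a position methylated in 3 or more cells. Alternatives changed window, ends, strands, 0.5 values, coverage, weighting, pools and members.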

Additional observations from a re-analysis of the deposited data

Results flagged for a closer look

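The 4 listed genes whose proteins bind Mdm2 (Rpl5, Rpl11, Rpl23 and Rps7) were pooled by library pool, and AG-881 pool 4 stood apart from the other AG-881 pools. It was at 4.17% (17 of 408 calls, interval 2.45 to 6.59), against 1.17%, 0.952% and 1.24% in AG-881 pools 1 to 3. DMSO pools 5 to 8 were at 0.730%, 0%, 1.75% and 0.692%. Of the 17 methylated calls in AG-881 pool 4, 12 lay at Rpl5 and 4 at Rps7. Few cells held most of them: 1 cell had 5 at Rpl5, another had 4 at Rpl5, and yet another had 3 at Rps7. The interval treats these calls as independent and does not cover such clustering within cells. Pools are technical batches of 1 culture, 16 groups of 4 pools were looked at, and chance alone flags about 1 group in 20.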

How the results depend on the processing

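The pooled levels depended on where the window was laid. Levels in AG-881 cells and DMSO cells were 0.724% and 0.754% within 250 bp, 1.49% and 1.57% within 1000 bp, 1.59% and 1.54% with both ends pooled, 0.589% and 0.710% at positions with calls from 5 or more cells per arm, and 0.787% and 0.499% as a mean over measured members. Under alternatives chosen after seeing the data they were 0.574% and 0.599% in windows of 20 or more positions, 0.717% and 0.766% in 55 windows centred on a listed start, and 0.435% and 0.338% without Rpl5, Rpl10a, Rpl12, Rpl22, Rpl36, Rpl37rt and Rpl38. The difference between arms ran from -0.121 to 0.288 points and stayed within its interval under every alternative run. Members at 1% or more numbered 6 within 250 bp, 26 within 1000 bp and 7 at positions called in 5 cells, against 13. Members higher with AG-881 numbered 3, 8 and 3 under these settings, and 3 both in windows of 20 or more positions and without the 7 members named, against 5; lower members numbered 2 without those 7, against 4. The median over cells, 0.647%, was 1.23% within 1000 bp, 1.18% with both ends, and 0% within 250 bp, at positions called in 5 cells, in windows of 20 or more positions and without those 7. Leaving out 1 pool gave 1.08% to 1.35% in AG-881 cells, 0.946% to 1.16% in DMSO cells, differences of 0.000237 to 0.270 points, 10 to 18 members at 1% or more, 4 to 10 higher and 3 to 5 lower, and a median of 0.541% to 0.683%; the most higher members came without AG-881 pool 3 (10) and without pool 1 or 2 (9 each).

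Single members changed sign as follows: Rpl36 to -9.94 points within 250 bp, -2.04 at positions called in 5 cells and -0.959 without AG-881 pool 1 (up to 14.8 without DMSO pool 5); Rps7 to -0.513 and Rps24 to -0.0325 within 1000 bp; Rpl18 to -0.582 at its listed start. The cause was not tested. No cell had fewer than 20 calls. No paired analysis was possible because the columns carry no replicate number. Read depth per call is unknown, and levels under about 0.3% rest on few calls per member.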

Other observations

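Other translation genes gave the following values. The X-linked gene Rps4x had 0 methylated of 56 calls in AG-881 cells and 0 of 50 in DMSO cells, and it was the only measured one of 4 X-linked ribosomal protein genes. Of 78 genes for mitochondrial ribosomal proteins, 57 were measured, and they were at 1.22% in AG-881 cells and 1.39% in DMSO cells. Of these 57, 22 (38.6%) reached 1% in either arm, against 50.2% of all measured gene ends. Mrps23 stood out with 78.2% in AG-881 cells and 71% in DMSO cells. The 53 measured translation factor genes were at 2.01% in AG-881 cells and 2.00% in DMSO cells, and 17 (32.1%) reached 1%. Eef1a2, an elongation factor of neurons and muscle, was at 48.6% in AG-881 cells and 63.3% in DMSO cells, and Eif4e3 at 28% in AG-881 cells and 23.7% in DMSO cells. Of the Rps6k kinase family, 5 genes were measured, and Rps6kl1 was at 48.5% in AG-881 cells and 52.3% in DMSO cells. The 8 measured housekeeping genes were at 0.220% in AG-881 cells and 0.201% in DMSO cells.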
